A study of Mus musculus with 19 samples.

Results

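*Lipo2* and *Lipo3* are neighbouring, overlapping lipase genes on mouse chromosome 19, and they are 2 of the 41388 genes in the count tables. They were matched by symbol to the Ensembl identifiers ENSMUSG00000087303 (*Lipo2*) and ENSMUSG00000024766 (*Lipo3*). They were chosen because earlier results of these counts had shown both at a lower level in mice heterozygous for a mutation in *Wiz*. The genotype difference of the pair is therefore given as a description, with no test. Differences between tissues and between sexes were not used in the choice and were tested.

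RNA-seq was carried out on whole brains of E13.5 embryos (13.5 days after conception) and on cerebellums of adult males (56 days after birth), to ask which genes change when 1 copy of *Wiz* is mutant. *Wiz* encodes a zinc finger protein that acts with the histone methyltransferases EHMT1 and EHMT2. The mutant allele, *Wiz MommeD30*, was induced by the chemical mutagen ENU. Heterozygous animals, *Wiz MommeD30/+*, were compared with *Wiz +/+* animals in male brain (3 and 3 samples), female brain (2 and 2) and cerebellum (3 and 3). All groups share the FVB strain background (FVB/NJ per the study), and per the study the line also carries a GFP transgene driven by a human globin promoter. Reads from FVB animals were mapped to the mm10 reference, which derives from another strain. Nothing in the labels says that samples with the same replicate number are littermates, and p-values measure the spread between these samples.

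Total counts ran from 16386029 to 50459755 per library, with the least in replicate 2 of the male *Wiz +/+* brains. *Wiz* itself stood at 189.9 ± 9.3 CPM (counts scaled to a common total in each library; SD, n = 3) in male *Wiz +/+* brain and 122.4 ± 3.7 in male *Wiz MommeD30/+* brain. In female brain it was 190.4 ± 6.6 and 128.2 ± 2.2 CPM (n = 2 each), and in cerebellum 95.4 ± 0.1 and 67.3 ± 0.6 (n = 3 each), with no overlap between genotypes in any of the 3 comparisons. The tissue labels were checked against marker lists. The summed level of the 4 Purkinje cell markers was 2577 to 2672 CPM in cerebellum and 17.5 to 27.4 in brain. That of the 5 neural progenitor markers was 161.4 to 179.0 in cerebellum and 832.6 to 1170 in brain. Of these 5, *Pax6* went the other way, with group means of 125.7 to 128.2 CPM in cerebellum and 74.1 to 101.6 in brain.

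Acid lipases are hydrolases that release fatty acids from triglycerides and cholesteryl esters, some in lysosomes (*Lipa*), some after secretion, as gastric lipase (*Lipf*) is. In the mouse, the *Lipo* genes form a tandem cluster beside these relatives, next to *Lipf* and the epidermal lipases *Lipk*, *Lipn* and *Lipm*. Genes copied in tandem keep similar sequences, so short reads from one copy can match another.

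In the GENCODE M21 annotation of GRCm38 (mm10), *Lipo3* spans chr19:33555160-33761951 on the minus strand, 206792 bases, with 5007 exonic bases. *Lipo2* spans chr19:33719670-33751359 on the same strand, 31690 bases with 2887 exonic bases. All of *Lipo2* lies inside the first intron of the long transcript Lipo3-201, while the shorter transcript Lipo3-202 ends its span at 33590308 and does not reach *Lipo2*. RefSeq draws the locus differently. It places the start of *Lipo2* at 33761951, which is where GENCODE starts Lipo3-201, and it starts *Lipo3* at 33590311, 171640 bases away. Reads over the far 5′ exon would thus be given to *Lipo3* under GENCODE and to *Lipo2* under RefSeq, and the annotation release used for the counts is not given in the sources used here.

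**Figure D1:**
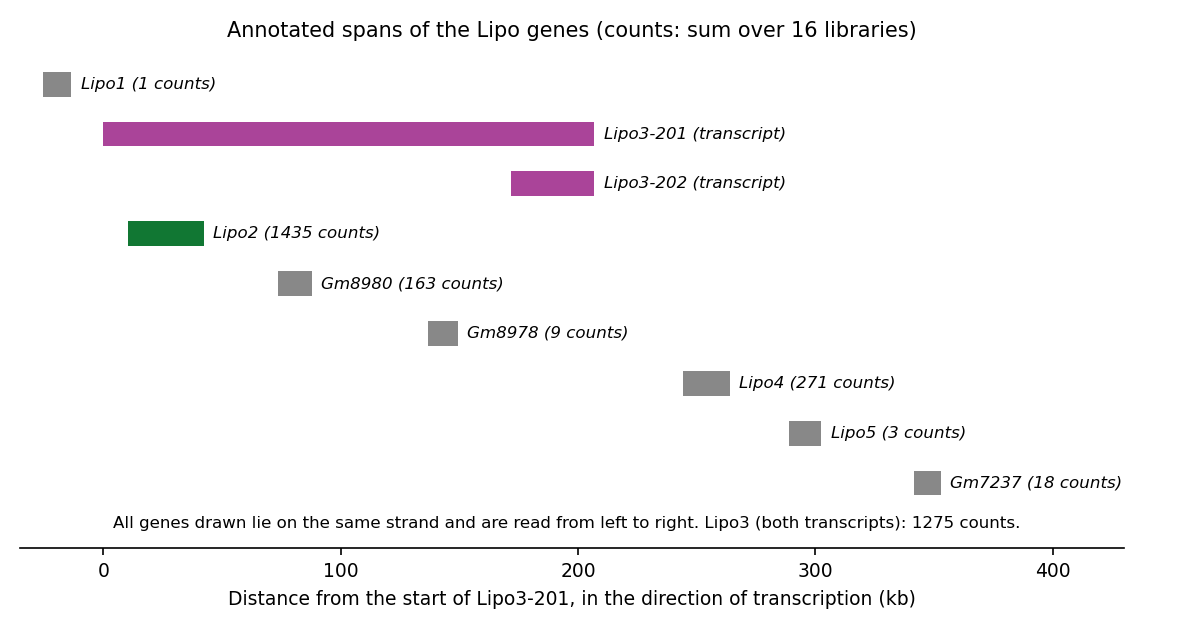
Annotated spans in GENCODE M21 of the *Lipo* genes, with distance in kb from the start of Lipo3-201 on the x axis and the count summed over 16 libraries beside each gene. *Lipo2* (1435 counts) lies within the span of Lipo3-201, and *Lipo3* (1275 counts) and *Lipo2* hold most of the counts of the cluster.

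The RefSeq promoter windows of the pair (250 bases before to 50 after the annotated start, GRCm38.p6) are printed because they are near copies of each other, although the start sites are far apart. *Lipo2* is at chr19:33761902-33762201 and *Lipo3* at chr19:33590262-33590561, both minus strand and written 5′ to 3′. Capitals mark matches to the TATA box letters (TATAAA) and to those of the CCAAT box on either strand. In *Lipo2* they also mark, on the other strand, a core of the motif of CTCF, a zinc finger protein that binds DNA and organises chromatin (CC, any 3 bases, AG, any 2 bases, then GGC).
Lipo2: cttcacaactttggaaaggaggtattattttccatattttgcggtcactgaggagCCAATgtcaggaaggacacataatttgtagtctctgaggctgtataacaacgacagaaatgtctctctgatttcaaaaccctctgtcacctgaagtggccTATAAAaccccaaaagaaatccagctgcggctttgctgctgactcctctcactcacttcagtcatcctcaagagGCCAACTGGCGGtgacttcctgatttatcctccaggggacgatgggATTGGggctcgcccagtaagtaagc
Lipo3: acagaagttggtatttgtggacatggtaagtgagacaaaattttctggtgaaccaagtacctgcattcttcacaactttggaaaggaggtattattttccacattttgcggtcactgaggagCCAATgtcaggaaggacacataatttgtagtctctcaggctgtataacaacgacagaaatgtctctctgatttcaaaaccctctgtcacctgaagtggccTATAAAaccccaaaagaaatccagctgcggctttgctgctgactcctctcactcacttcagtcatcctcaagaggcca

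Over the 233 bases that the windows share, 231 were identical (99.1%), with 2 mismatches and no gap. The *Lipo2* start was annotated 67 bases further downstream in this common sequence, so the same TATAAA lies at -28 to -23 of the *Lipo3* start and at -95 to -90 of the *Lipo2* start. When the *Lipo3* stretch was moved by those 67 bases, 298 of 300 bases were identical and it held the CTCF core letters too. Counting both strands, TATAAA was found in 13.6% of all 32851 RefSeq promoter windows, CCAAT in 37.4% and the CTCF core in 8.6%. These are matches of letters and not sites shown to be used. The windows of *Lipo1*, *Lipo4* and *Gm8978*, the other cluster members with an entry, resembled each other at 86.4% to 98.0% identity, but each aligned with those of *Lipo2* and *Lipo3* over at most 30 columns.

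The transcripts are also alike. Lipo2-201 and Lipo3-202 were identical at 93.6% of aligned positions, and Lipo2-201 and Lipo4-201 at 96.6%. Of all stretches of 100 bases, the length of the reads, 22.7% of those in Lipo2-201 were found without a mismatch in *Lipo3* or *Lipo4*. Of those in Lipo3-202, 8.8% were found in the same way in another gene (*Gm7237*, *Gm8980*, *Lipo1*, *Lipo2* or *Rnls*). With up to 2 mismatches allowed within the family, these shares were 79.2% and 39.8%. Whether and how reads that match several copies were counted is not given in the sources used here. The split of counts between *Lipo2*, *Lipo3*, *Lipo4* and the pseudogene *Gm8980* is therefore uncertain. Sums over them are given beside the single genes, but a sum holds only reads that were counted.

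Both genes were weakly expressed. In the male *Wiz +/+* brains, *Lipo2* had 205, 53 and 129 counts, or 4.06, 3.23 and 3.75 CPM, and in the male *Wiz MommeD30/+* brains 115, 136 and 68 counts, or 2.85, 3.32 and 1.99 CPM. The groups overlapped, because the second *Wiz +/+* brain was below the second *Wiz MommeD30/+* brain. The mean of the heterozygous brains was 73.9% of that of the *Wiz +/+* brains, and the fitted log2 fold change was -0.46 (SE 0.17).

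*Lipo3* in the same male brains had 168, 78 and 110 counts, or 3.33, 4.76 and 3.20 CPM, in *Wiz +/+*, and 83, 78 and 64 counts, or 2.06, 1.90 and 1.87 CPM, in *Wiz MommeD30/+*. Here the groups did not overlap. All samples of a gene were lower in *Wiz MommeD30/+* for 5.40% of the 16848 genes tested in male brain, and since the pair was chosen on this contrast nothing is read from that. The heterozygous mean of *Lipo3* was 51.7% of the *Wiz +/+* mean, with a log2 fold change of -0.89 (SE 0.16). The second *Wiz +/+* brain, the shallowest library, held the highest *Lipo3* and the lowest *Lipo2* level of its group. Its 95% counting interval was 3.76 to 5.94 CPM for *Lipo3* and 2.42 to 4.23 CPM for *Lipo2* (exact Poisson, counting error only).

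In female brain, *Lipo2* had 202 and 165 counts in *Wiz +/+*, or 4.25 and 3.75 CPM, and 83 and 91 counts in *Wiz MommeD30/+*, or 1.82 and 1.96 CPM. *Lipo3* had 182 and 130 counts, or 3.83 and 2.95 CPM, against 72 and 86 counts, or 1.58 and 1.85 CPM. Neither gene overlapped between genotypes, which held, in the lower direction, for 17.3% of the 17152 genes tested with 2 samples a group. The heterozygous means were 47.2% (*Lipo2*) and 50.5% (*Lipo3*) of the *Wiz +/+* means, with log2 fold changes of -1.09 (SE 0.16) and -0.99 (SE 0.20).

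In adult cerebellum, *Lipo2* had 41, 45 and 37 counts in *Wiz +/+*, or 1.34, 1.52 and 1.21 CPM, and 17, 24 and 24 counts in *Wiz MommeD30/+*, or 0.60, 0.81 and 0.78 CPM. *Lipo3* had 46, 52 and 46 counts, or 1.5, 1.76 and 1.5 CPM, against 34, 27 and 19 counts, or 1.20, 0.92 and 0.62 CPM. Again neither gene overlapped between genotypes, against 12.6% of the 15979 genes tested that were lower in all heterozygous samples. The heterozygous means were 53.9% (*Lipo2*) and 57.4% (*Lipo3*) of the *Wiz +/+* means, with log2 fold changes of -0.88 (SE 0.22) and -0.81 (SE 0.22). At these counts a single library is known only within a wide interval: 17 *Lipo2* counts, the lowest, correspond to 0.35 to 0.96 CPM. In whole tissue, fewer cells that express a gene and less RNA per cell cannot be told apart.

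**Figure D2:**
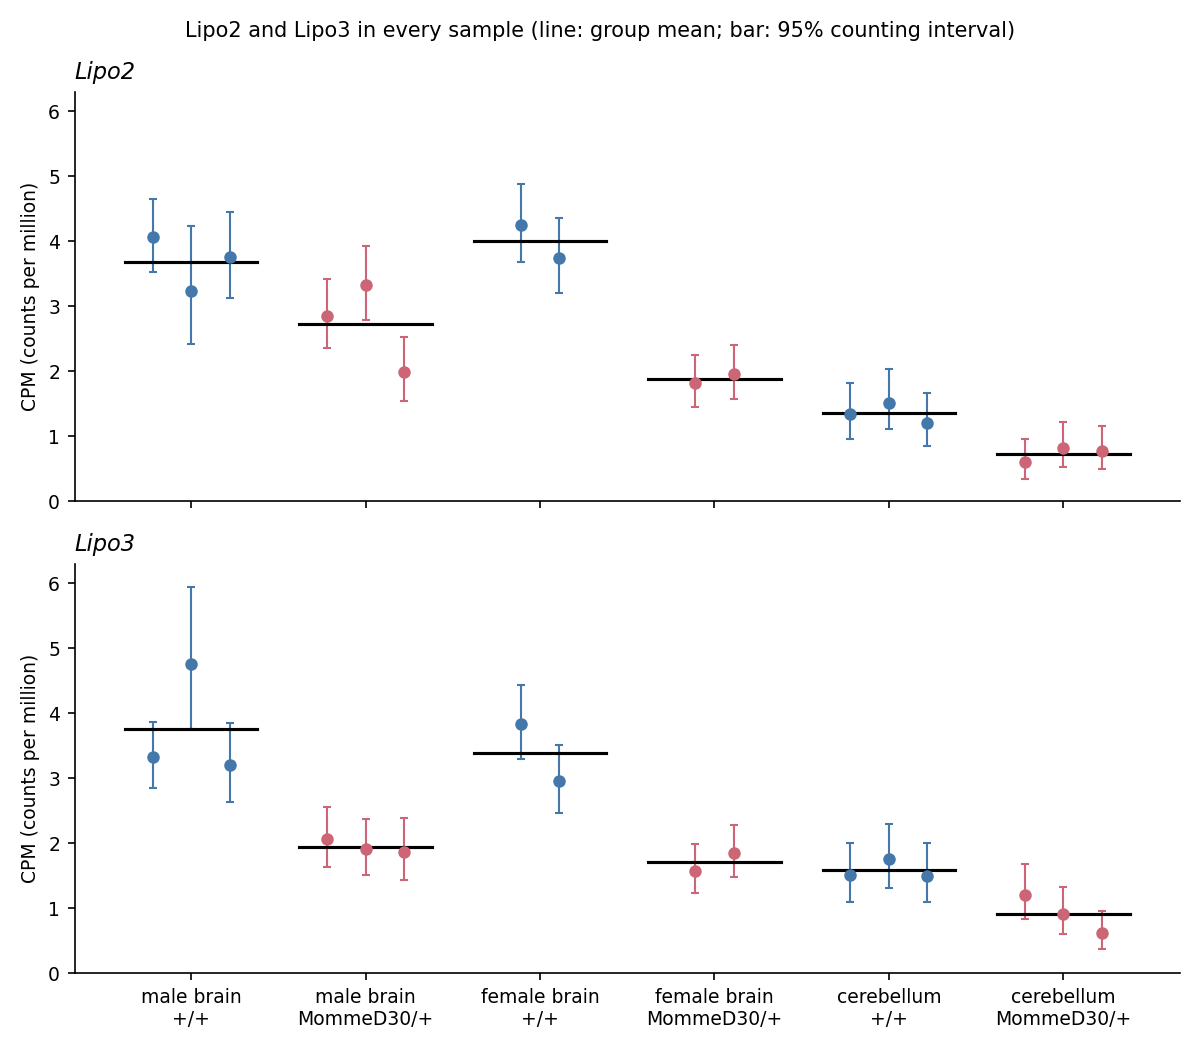
CPM of *Lipo2* (top) and *Lipo3* (bottom) in each of 16 libraries, blue for *Wiz +/+* and red for *Wiz MommeD30/+*. Black lines are group means and bars are 95% counting intervals: the only pair of groups that overlaps between genotypes is *Lipo2* in male brain, and both genes are lower in cerebellum than in brain.

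Both genes were also summed, so that the split of counted reads between them does not matter. The level was 7.45 ± 0.52 CPM in male *Wiz +/+* brain and 4.67 ± 0.72 in male *Wiz MommeD30/+* brain (n = 3 each), or 62.7%. The sum was 48.7% of *Wiz +/+* in female brain and 55.8% in cerebellum. With *Lipo4* and *Gm8980* added, the shares were 62.8%, 47.9% and 57.4%. No sample of either sum overlapped between genotypes. Both sums contain the pair, which was chosen on this contrast, so nothing is read from that. Of all single genes tested, 12.6% were lower in every heterozygous sample of cerebellum. The share was 17.3% for the female brains and 5.40% for the male ones. The ratio of *Lipo2* to *Lipo3* counts ran from 0.68 to 1.22 in male *Wiz +/+* brains and from 1.06 to 1.74 in male *Wiz MommeD30/+* brains, and these ranges overlap.

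Levels were also taken per kilobase of exon, with all annotated exons of a gene merged (2887 bases for *Lipo2*, 5007 for *Lipo3*). In male *Wiz +/+* brain *Lipo2* stood at 1.28 ± 0.14 CPM per kb and *Lipo3* at 0.75 ± 0.17. In *Wiz +/+* cerebellum they stood at 0.47 ± 0.05 and 0.32 ± 0.03 (n = 3 each). The gap between the genes depends on the length taken, as Lipo2-201 has 2184 bases and Lipo3-202 has 2839. The order of the *Lipo2* groups by mean CPM, from high to low, was female and male *Wiz +/+* brain, male and female *Wiz MommeD30/+* brain, *Wiz +/+* cerebellum and *Wiz MommeD30/+* cerebellum. For *Lipo3* the order began with male *Wiz +/+* brain and was otherwise the same. Of neighbours in the *Lipo2* order, female and male *Wiz +/+* brain overlapped, and so did male *Wiz +/+* and male *Wiz MommeD30/+* brain. In the *Lipo3* order, male and female *Wiz +/+* brain overlapped, and so did female *Wiz MommeD30/+* brain and *Wiz +/+* cerebellum. Male and female *Wiz MommeD30/+* brains were barely apart, the lowest male value being 1.99 CPM and the highest female value 1.96 for *Lipo2*, and 1.87 and 1.85 for *Lipo3*.

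Some of the 8 marker lists did not overlap between genotypes in their summed level. In male brain this held for 1 list, the Purkinje cell markers, at 18.7 to 21.1 CPM in *Wiz +/+* and 23.7 to 27.4 in *Wiz MommeD30/+*. The difference was mainly that of *Calb1*, with means of 16.9 and 22.7 CPM. *Car8* stood at 1.22 and 1.36, *Pcp2* at 0.16 in both, and *Pvalb* went the other way, at 1.42 and 1.21. In female brain, with 2 samples a group, 5 lists did not overlap. Separation is common in groups this small. Among single genes, the female brains had 17.3% lower in every heterozygous sample, the cerebellum 12.6% and the male brains 5.40%. These shares cover the lower direction only, and none is given for summed lists. Nothing is therefore read from the number of lists, and whether cell types differed by genotype was not tested. The neural progenitor markers were higher in *Wiz MommeD30/+* (832.6 to 978.8 CPM against 1101 to 1119). So were the granule cell markers (110.7 to 129.1 against 141.2 to 145.9). *Pax6*, which is in both lists, had means of 74.1 CPM in *Wiz +/+* and 98.0 in *Wiz MommeD30/+*. The other granule cell markers did not rise: *Neurod1* stood at 44.8 and 44.6, *Cbln3* at 1.00 and 0.99 and *Gabra6* at 0.0 in both. The neuron markers (4297 to 4552 CPM against 4089 to 4241), the blood markers (373.2 to 441.4 against 306.9 to 351.7) and the macrophage and microglia markers (52.6 to 53.8 against 47.0 to 48.3) were lower. In cerebellum 3 lists did not overlap. The blood markers (144.3 to 226.2 CPM against 264.5 to 478.7) and the granule cell markers (3061 to 3105 against 3139 to 3236) were higher in *Wiz MommeD30/+*. The neural progenitor markers were lower (167.1 to 179.0 against 161.4 to 161.9), and *Pax6*, also in the granule cell list, held most of this sum. The blood markers thus lay in opposite directions in female brain and cerebellum. Of the granule cell markers in cerebellum, *Cbln3* (mean 1588 against 1721 CPM) and *Neurod1* (480.7 against 489.0) were higher in *Wiz MommeD30/+*. The means of *Gabra6* (891.4 against 858.6) and *Pax6* (128.2 against 125.7) were lower. The choroid plexus markers overlapped in every comparison. Markers of surface epithelium and glands were summed at 4.01 to 13.9 CPM over all groups. *Krt5* and *Krt14* had 2 and 1 counts at most. *Cdh1* had 44 to 357 counts per library, *Epcam* 6 to 135, *Aqp5* 7 to 34 and *Krt15* 0 to 18. What part any of these has in the *Lipo2* and *Lipo3* levels was not tested.

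The genes around the pair served as a local control. Besides *Lipo2* and *Lipo3*, 30 genes were taken, the 15 nearest annotated genes on each side, together with 3 others inside the interval. On the side of higher coordinates 7 of 15 had any count, and on the other side 14 of 15. The nearest relatives were almost silent: over all 16 libraries *Lipo1* had 1 count, *Lipo5* 3, *Lipk* 2, *Lipm* 2, *Lipf* 0 and *Lipn* 0. Within the cluster, only *Lipo4* (271 counts) and the pseudogene *Gm8980* (163) were tested beside the pair.

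None of the 12 flanking genes tested in male brain passed the threshold (edgeR quasi-likelihood test with Benjamini-Hochberg adjustment; a fold below 0.7 or above 1.3 and an adjusted p no higher than 0.05), which 0.184% of all genes passed. DESeq2 called 0 as well, and 1 had an unadjusted p under 0.05, *Lipo4*. None of 12 passed in female brain (0.111% of all genes; DESeq2 0; 1 unadjusted, *Lipo4*) and none of 12 in cerebellum (0.832% of all genes; DESeq2 0; 2 unadjusted, *Acta2* and *Fas*). Without *Lipo4*, the log2 fold changes of the flanking genes ran from -0.19 to 0.06 in male brain with a median of -0.02, and from -0.37 to 0.18 in female brain with a median of -0.13. In cerebellum they ran from -0.30 to 0.70 with a median of 0.02. These ranges lie above the values of *Lipo2* and *Lipo3*, which were chosen on this contrast. Without the third male *Wiz MommeD30/+* brain the order does not hold, with *Lipo2* at -0.29 and *Stambpl1* at -0.32.

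*Lipo4*, the neighbouring lipase 37.4 kb from the interval and closer to *Lipo2* in transcript sequence than *Lipo3* is, stood at 0.69 ± 0.33 CPM in male *Wiz +/+* brain and 0.36 ± 0.01 in male *Wiz MommeD30/+* brain. The counts were 46, 5 and 29 against 14, 15 and 12, with overlap. In female brain it had 42 and 36 counts against 21 and 17. The log2 fold changes were -1.12 (SE 0.32, edgeR adjusted p = 0.298) in males and -1.04 (SE 0.28, edgeR adjusted p = 0.773) in females, neither past the threshold. The gene passed when all 10 brains were fitted with sex as a covariate (log2 fold change -1.08, edgeR adjusted p = 0.0476) and in male brain without a filter on low counts (edgeR adjusted p = 0.0349). Over all the alternatives in male brain its adjusted p ran from 0.0349 to 0.903. In cerebellum it had 4 to 7 counts and 5 to 8 counts and was not tested. *Lipo4* shares stretches with *Lipo2*, so its counts may include reads of the pair.

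*Gm8980*, inside the *Lipo3* span, had 25, 2 and 11 counts in male *Wiz +/+* and 14, 13 and 6 in male *Wiz MommeD30/+* brain (log2 fold change -0.37, SE 0.40, and 0.17 without the first *Wiz +/+* brain). In female brain it had 25 and 20 against 1 and 15 (log2 fold change -1.49, SE 0.69, edgeR adjusted p = 0.789). Leaving out the first female *Wiz MommeD30/+* brain, the library with 1 count, gave -0.60, and leaving out the second gave -4.33. It did not pass in either sex. *Gm8978*, in the same span, was near silent, with at most 2 counts in any library.

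Beyond the cluster, *Rnls*, which encodes renalase and lies 162.9 kb away, had a log2 fold change of 0.00 (SE 0.14) in male brain, -0.20 (SE 0.16) in female brain and -0.30 (SE 0.17) in cerebellum. *Rnls* shares stretches with Lipo3-202, so its counts may include reads of *Lipo3*. On the other side, *Stambpl1*, which encodes a deubiquitinase, had -0.19 (SE 0.13), -0.37 (SE 0.18) and -0.15 (SE 0.08), and *Acta2*, the smooth muscle actin gene, had -0.04 (SE 0.10), -0.13 (SE 0.13) and -0.17 (SE 0.08). *Fas*, a death receptor gene tested in cerebellum, was at 1.18 ± 0.36 CPM in *Wiz +/+* and 1.92 ± 0.22 in *Wiz MommeD30/+* (log2 fold change 0.70, SE 0.21, edgeR adjusted p = 0.0549). It passed without the filter on low counts (edgeR adjusted p = 0.0132), without the first *Wiz +/+* cerebellum (0.0235) and with replicate number as a block (0.0481).

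Other flanking genes tested were *Prkg1*, *Asah2*, *Sgms1*, *2700046G09Rik*, *Minpp1*, *Papss2* and *Atad1*. *Asah2* encodes neutral ceramidase and *Sgms1* sphingomyelin synthase, both lipid enzymes, and their log2 fold changes by genotype ran from -0.24 (*Asah2*, female brain) to 0.09 (*Sgms1*, cerebellum).

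**Figure D3:**
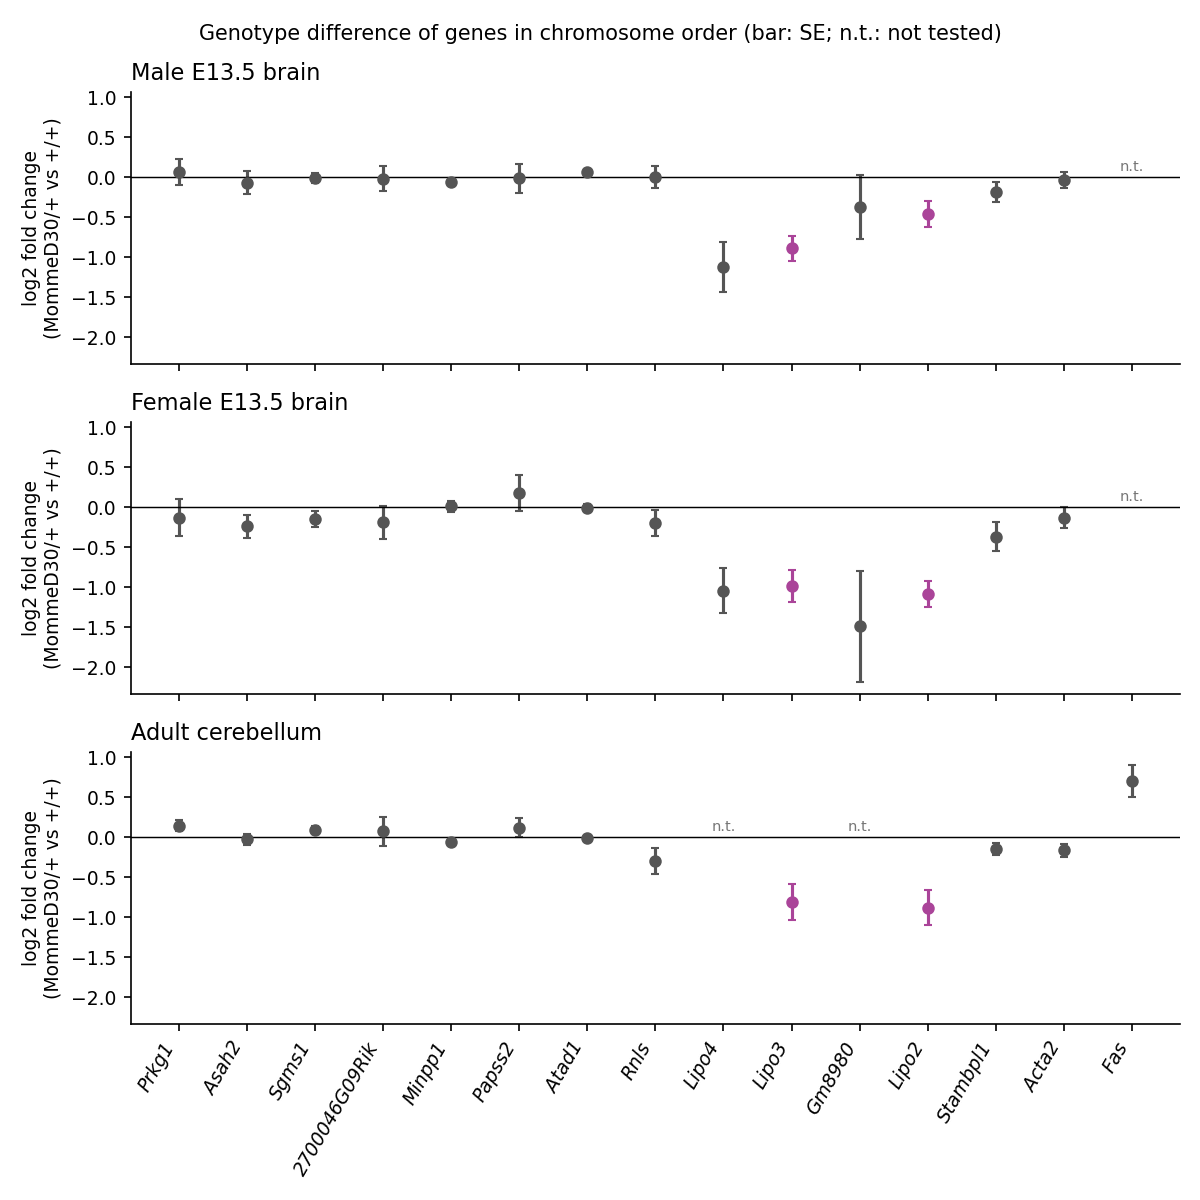
Log2 fold change of *Wiz MommeD30/+* against *Wiz +/+* (y axis; bars, SE) for *Lipo2* and *Lipo3* (purple) and for flanking genes that were tested (grey), in chromosome order, in the 3 comparisons. The pair lies below every gene drawn from outside the *Lipo* cluster. In male brain *Lipo4*, at -1.12, lies below both, and in female brain *Gm8980*, at -1.49, rests on a library with 1 count.

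Both genes were lower in adult cerebellum than in E13.5 brain, a contrast that the choice of the pair did not use. In *Wiz +/+* males, *Lipo2* was at 1.36 ± 0.16 CPM in cerebellum and 3.68 ± 0.42 in brain, and *Lipo3* at 1.59 ± 0.15 and 3.76 ± 0.87 (n = 3 each), with no overlap for either gene, as for 51.6% of all genes in this direction. The log2 fold changes were -1.27 (SE 0.15, edgeR adjusted p = 1.73e-06) and -0.97 (SE 0.17, edgeR adjusted p = 7.96e-05), and both genes passed the threshold, as 32.9% of all genes did in this direction. In *Wiz MommeD30/+* males, *Lipo2* was at 0.73 ± 0.11 CPM in cerebellum and 2.72 ± 0.68 in brain, and *Lipo3* at 0.91 ± 0.29 and 1.94 ± 0.10, again with no overlap (52.6% of all genes). The log2 fold changes were -1.68 (SE 0.23, edgeR adjusted p = 9.26e-06) and -0.88 (SE 0.20, edgeR adjusted p = 0.0011), and both passed, as did 33.0% of all genes in this direction. Since so many genes changed between the tissues, a call in this contrast is common.

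Tissue and age changed together and cannot be told apart. The choice of scaling matters more here than elsewhere: scaling by total counts in place of TMM factors moved the median of all genes by -0.21 in *Wiz +/+* and -0.22 in *Wiz MommeD30/+* males, and the values of the pair to -1.48 (*Lipo2*) and -1.18 (*Lipo3*) in *Wiz +/+* and to -1.90 and -1.1 in *Wiz MommeD30/+*. Whether the genotype difference differed between tissues or sexes was not tested.

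The flanking genes went the other way or did not pass. In *Wiz +/+* males 7 of 12 tested passed and all 7 were higher in cerebellum, against 69.3% of all genes passing in either direction and 36.4% as higher. In *Wiz MommeD30/+* males 7 of 13 passed, again all higher, against 68.8% and 35.8%. In *Wiz +/+* males the genes that rose were *Prkg1* (1.27, SE 0.13), *Asah2* (2.20, SE 0.10), *Sgms1* (2.03, SE 0.07), *Papss2* (1.91, SE 0.14), *Stambpl1* (1.82, SE 0.09), *Acta2* (1.28, SE 0.09) and *Fas* (2.63, SE 0.31), all as log2 fold changes. *Rnls*, the nearest tested gene outside the cluster, was at 0.01 (SE 0.15). *Lipo4*, tested in *Wiz MommeD30/+* males alone, had a log2 fold change of -0.58 (SE 0.34, edgeR adjusted p = 0.157), and -0.80, past the threshold, with total counts.

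**Figure D4:**
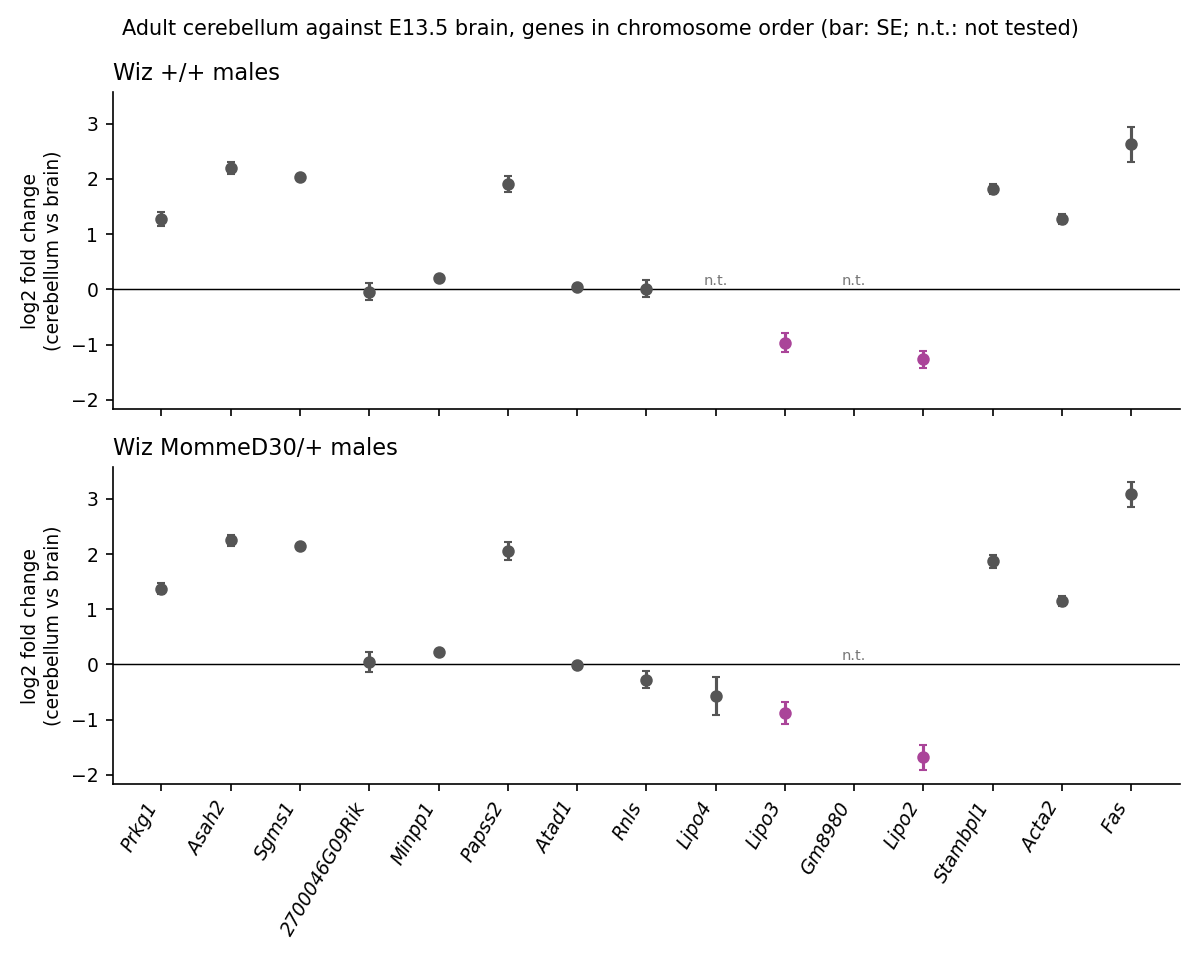
Log2 fold change of adult cerebellum against E13.5 male brain (y axis; bars, SE) for *Lipo2* and *Lipo3* (purple) and flanking genes that were tested (grey), in chromosome order, in *Wiz +/+* and *Wiz MommeD30/+* males. The pair lies between -1.68 and -0.88, and 7 flanking genes lie above 1 in each genotype.

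No difference between the sexes was detected for either gene in E13.5 brain. With genotype as a covariate, the log2 fold change of female against male brains was -0.19 for *Lipo2* (SE 0.15, edgeR adjusted p = 0.439; approximate 95% interval -0.49 to 0.10) and -0.14 for *Lipo3* (SE 0.13, edgeR adjusted p = 0.519; -0.38 to 0.11). Neither passed the threshold that 1.46% of all 17620 genes passed, and differences within those intervals cannot be told from 0 with 10 brains. Of 13 flanking genes tested, 1 passed, *Acta2* (log2 fold change 0.38, SE 0.07, edgeR adjusted p = 0.00928), which was higher in females.

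Of the acid lipase relatives, 9 genes (*Lipa*, *Lipf*, *Lipk*, *Lipm*, *Lipn*, *Lipo1*, *Lipo4*, *Lipo5* and *Gm8978*), 2 were tested in each brain comparison and 1 in cerebellum. *Lipa*, the lysosomal acid lipase, was far more abundant than the pair, at 22.5 ± 1.16 CPM in male *Wiz +/+* and 24.9 ± 0.20 in male *Wiz MommeD30/+* brain, and its genotype log2 fold changes were 0.13 (SE 0.05), -0.07 (SE 0.07) and -0.03 (SE 0.05) in male brain, female brain and cerebellum, none past the threshold. Across tissues in *Wiz +/+* males it was at 0.15 (SE 0.06), and at -0.06 with total counts.

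Other lipid genes did not pass by genotype. Over 4 lists of 55 genes in all (acid, extracellular and intracellular lipases with their cofactors, and lysosomal lipid handling), edgeR called 0 of 35 tested in male brain, 0 of 36 in female brain and 0 of 33 in cerebellum, and DESeq2 called 0 in each. At an unadjusted p under 0.05 there were 3, 1 and 9, against 8.45%, 6.4% and 19.9% of all genes. The list medians lay between -0.07 and 0.01 in all comparisons by genotype for the extracellular, intracellular and lysosomal lists, with the median of all genes at 0.00 in each. *Lpl*, the lipoprotein lipase, had log2 fold changes of 0.00 (SE 0.10) in male brain, 0.21 (SE 0.12) in female brain and -0.22 (SE 0.14) in cerebellum. In cerebellum *Mgll*, which degrades monoglycerides, had 0.06 (SE 0.03), *Smpd1*, the acid sphingomyelinase, -0.10 (SE 0.03), and *Pnpla6*, a phospholipase, -0.12 (SE 0.03, edgeR adjusted p = 0.0473, a fold too small for the threshold).

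Across tissues, 36.4% of all genes passed as higher in cerebellum and 32.9% as lower in *Wiz +/+* males (30.3% and 39.7% with total counts), and 35.8% and 33.0% in *Wiz MommeD30/+* males. Against this, 14 of 17 intracellular lipolysis genes tested were higher in *Wiz +/+* males and 1 was lower (13 and 1 with total counts), and the counts were the same in *Wiz MommeD30/+* males. Within this list the highest log2 fold changes in *Wiz +/+* males were those of *Nceh1*, a cholesteryl ester hydrolase (3.98, SE 0.07), and *Mgll* (3.43, SE 0.09), while *Plin2*, a lipid droplet protein, was lower (-1.29, SE 0.07). Of 6 extracellular lipase genes tested, 3 were lower and 3 higher in *Wiz +/+* males (3 and 2 with total counts). *Lipg*, the endothelial lipase (-6.58, SE 0.18), *Lpl* (-2.46, SE 0.10) and *Angptl4*, an inhibitor of lipoprotein lipase (-2.60, SE 0.13), were lower. Of 11 lysosomal genes, 5 were higher, among them *Smpd1* (1.67, SE 0.04) and *Tfeb*, a regulator of lysosomal genes (4.07, SE 0.11), and 1 was lower, *Npc2*, a cholesterol carrier (-0.62, SE 0.04), against 4 higher and 2 lower with total counts.

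*Lipo2* and *Lipo3* followed each other across the libraries. After each gene's log2 CPM was centred within tissue and sex, Pearson's r between them was 0.74 over 16 libraries. This is a description that includes the genotype difference used to choose the pair. The genes were also counted in the same libraries, and Lipo2-201 and Lipo3-202 were identical at 93.6% of aligned positions. Of the 8 *Wiz +/+* libraries, 8 were above the mean for each gene, and of the 8 *Wiz MommeD30/+* libraries 1 was above it for *Lipo2* and 1 for *Lipo3*. *Wiz* had r = 0.90 with *Lipo3*, the fifth highest of 16937 genes, and r = 0.82 with *Lipo2*, rank 26.

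**Figure D5:**
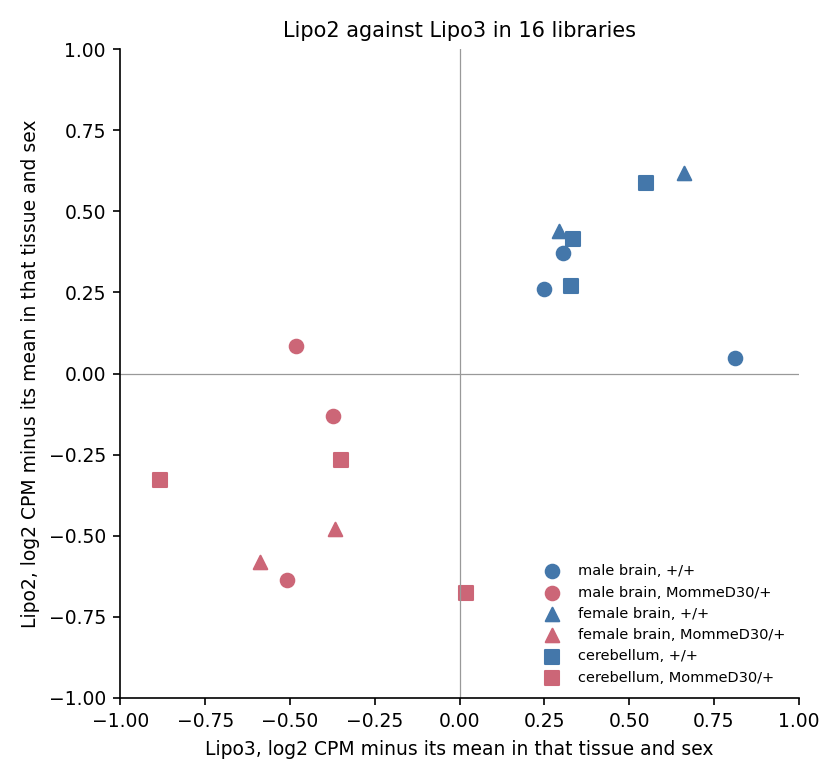
Log2 CPM of *Lipo2* (y axis) against *Lipo3* (x axis), each centred within tissue and sex, in 16 libraries, with blue for *Wiz +/+*, red for *Wiz MommeD30/+* and the marker shape for tissue and sex. The *Wiz +/+* libraries lie at 0.05 or more on the *Lipo2* axis and 0.25 or more on the *Lipo3* axis, and the heterozygous libraries reach 0.09 and 0.02 at most.

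The 5 genes most like *Lipo3* by this measure included *2610005L07Rik* (r = 0.93), *6820431F20Rik* (0.91) and *Gm21092* (0.90), all on chromosome 8. The others were *Csf2ra*, a cytokine receptor subunit (0.90), on chromosome 19 as the pair is, and *Wiz* on chromosome 17. Those most like *Lipo2* were *Gm26804* (0.91) and *Gm21811* (0.90) on chromosome 8, the protocadherin genes *Pcdhb3* (0.90) and *Pcdhb2* (0.89) on chromosome 18, and *Gm4425* (0.89) on chromosome 12. *Lipo3* ranked 74th among the genes most like *Lipo2*, and *Lipo4* had r = 0.49 with *Lipo2* and 0.35 with *Lipo3*. Since the centring left the genotype difference in, and the pair was chosen on it, genes ranked this way are selected for a like difference, and their genotype values are a description. *2610005L07Rik* had -0.82 (SE 0.06) in male brain, -0.97 (SE 0.06) in female brain and -0.58 (SE 0.05) in cerebellum, and *Pcdhb3* had -0.27 (SE 0.12), -0.68 (SE 0.11) and -0.54 (SE 0.10).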

How the data were processed

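Single-end reads of polyA RNA were mapped to mm10 by the authors with TopHat2 2.0.11 and counted over genes with HTSeq 0.6.1. Each file the authors deposited holds unnormalised counts of reads by Ensembl gene; the counting mode, strand setting and annotation release are not given in the sources used here. Of 41388 identifiers, 40254 were found in GENCODE M21, while 1134 were not found (0.171% of a library at most). *Lipo2* and *Lipo3* and all gene lists were chosen with earlier results of these data known. The list entry written as *Lipo5* (*Gm8978*) names different genes in GENCODE, and both were used.

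Using edgeR 4.0.16 (R 4.3.3), a separate model was fitted for every comparison (TMM, filterByExpr with a minimum count of 10, quasi-likelihood test, Benjamini-Hochberg adjustment over all genes kept). Genes passed with a fold below 0.7 or above 1.3 and an adjusted p no higher than 0.05. DESeq2 1.42.0 was an alternative. CPM values were scaled by total counts. Likeness was Pearson's r of log2 CPM (prior count 2) over genes with a mean count of 10 or more. Genes named were the pair, *Wiz*, flanking genes that could be tested, list members that passed and some abundant others, and the 5 genes most like each of the pair. The edgeR fits were tested on simulated counts in which 200 genes were changed; with 2 female brains a group, fewer of these were recovered and more of the calls were false than in the other comparisons. Replicates differed by more than sampling noise, the chi-square divided by its degrees of freedom lying between 2.11 and 11.2. The 3 ChIP-seq samples were not analysed here, and values of some single genes that enter the counts are not reported here.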

Additional observations from a re-analysis of the deposited data

How the results depend on the processing

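Over the alternatives (DESeq2 size factors, DESeq2's Wald test, no filter on low counts, total counts without TMM factors, which was chosen after seeing the data, leaving out each replicate, the replicate block and, for genotype, all brains together) all 138 values of *Lipo2* and *Lipo3* kept their sign, and no call by tissue or sex changed. By leaving out 1 library, the genotype log2 fold change of *Lipo2* ran from -0.63 to -0.29 (without the third *Wiz MommeD30/+* brain) in male brain, -1.17 to -0.99 in female brain and -0.96 to -0.76 in cerebellum, and that of *Lipo3* from -0.98 to -0.75, -1.16 to -0.79 and -1.05 to -0.58. With all 10 brains in 1 fit, the value of *Lipo2* was -0.72, against -1.09 in female brains alone, and the cause was not tested. Of the flanking genes, 1 in place of 0 was called in male brain without a filter on low counts, in both brain comparisons with all 10 brains (*Lipo4*), and in cerebellum without the filter or with the replicate block (*Fas*); leaving out 1 library gave 0 to 1 in cerebellum (1 without the first *Wiz +/+*) and 0 to 0 in the brains.

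The number of genes called by genotype over the whole table depended on the setting. In male brain it was 31, and 175 without a filter, 61 with all brains and 20 (without the first *Wiz +/+*) to 117 (without the third *Wiz MommeD30/+*) by leaving out 1 library. In female brain it was 19, and 32 with DESeq2, 61 with all brains, 3 with the replicate block and 0 (without either *Wiz MommeD30/+*) to 261 (without the first *Wiz +/+*; 40 without the second) by leaving out 1 library. In cerebellum it was 133, and 80 with DESeq2, 211 without a filter and 70 (without the third *Wiz +/+*; 83 without the first *Wiz MommeD30/+*) to 153 by leaving out 1 library. Between the sexes it was 258, and 116 with DESeq2 and 156 (without the first male *Wiz +/+*; 162 without the first female *Wiz +/+*) to 318 by leaving out 1 library.

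The replicate numbers did not pair the samples: residuals of same-numbered samples correlated at -0.16 to -0.06 in male brain, -0.07 in female brain and -0.09 to -0.02 in cerebellum. With the replicate block the genotype values of *Lipo2* and *Lipo3* were -0.48 and -0.92 in male brain, -1.08 and -0.98 in female brain, and -0.88 and -0.81 in cerebellum, and by tissue -1.25 and -1.01 in *Wiz +/+* and -1.66 and -0.88 in *Wiz MommeD30/+* males. In cerebellum, single libraries held 17 to 52 counts of either gene, which limits precision there.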
